A study of Mus musculus with 9 samples.

Results

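Mpo, Elane, Prtn3, Ctsg and Ms4a3 mark the early, immature stages of the neutrophil lineage, and their transcripts were followed here in RNA of cells captured from mouse brain with an antibody to CD45, a surface protein of blood-derived cells and microglia. The 5 genes were taken by symbol from the deposited table of 18571 genes, and each symbol matched 1 row. All 3 groups were 9-month-old mice on a C57BL/6J background with 3 libraries each. The first group was wild type (WT). The second was APP/PS1, a strain with transgenes for a mutant human amyloid precursor protein and a mutant presenilin that forms amyloid plaques. The third was APP/PS1:Cx3cr1-CreER:Cx43-flox/flox, called cKO here, in which a tamoxifen-dependent recombinase made from the Cx3cr1 locus deletes connexin 43 (gene Gja1). Per the labels, the mice of every group received tamoxifen by gavage at 0.1 mg/g on 5 days at 8 months of age. The same labels give cortex and hippocampus as the source, after perfusion of the blood vessels and removal of the meninges, and call the captured cells microglia. CD45 is carried by all white blood cells, so the capture does not separate microglia from them. Cx3cr1 is also active in monocytes and some other white blood cells, and the labels name no Cre allele for the WT and APP/PS1 mice.

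Each library held 18907681 to 19565354 estimated counts. Gja1 was at 33.6 ± 1.77 CPM (counts per 1000000 of the TMM-scaled library size; SD, n = 3) in WT, 39.7 ± 2.72 in APP/PS1 and 26.9 ± 1.42 in cKO, so the deleted gene was lowest in cKO and still present there. In the same order Cx3cr1, whose locus makes the recombinase, stood at 2260 ± 24.2, 2231 ± 13.6 and 1214 ± 24.96 CPM. The labelled cell type was borne out by its markers: all 10 listed microglial genes were measured, and they summed to 19665 to 19991 CPM in the WT libraries, 24446 to 24730 in those of APP/PS1 and 20918 to 21114 in those of cKO. Ddx3y, a Y-linked gene, had 4137 to 4538 counts in the WT and APP/PS1 libraries and 0 to 2 in the cKO libraries, so expression of the Y chromosome and the Cx43 genotype cannot be told apart. The labels do not say whether the 3 libraries of a group came from separate animals or pools, so p-values measure only the spread between these libraries, which may be technical.

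Neutrophils fill their granules in a fixed order as they mature in the bone marrow. The azurophil, or primary, granules come first, at the promyelocyte stage, and carry myeloperoxidase and the serine proteases elastase, proteinase 3 and cathepsin G. The transcripts of these proteins fall once the cell enters the myelocyte stage, when the genes of the specific granules (lactoferrin, lipocalin 2, cathelicidin) are switched on, and the gelatinase granules and the receptors of the circulating cell follow. A mature blood neutrophil therefore holds azurophil proteins but little of their mRNA. Monocyte progenitors also make Mpo and the proteases. In healthy brain tissue, neutrophils and their progenitors are rare outside the vessels, the meninges and the marrow of the skull.

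The genes sit at 4 places in the genome. On GRCm38.p6, the build named in the submitters' processing notes, Prtn3 (chr10:79879667-79883174, plus strand, gene identifier 19152) and Elane (chr10:79886312-79888216, plus strand, 50701) are neighbours 3137 bases apart. Mpo lies at chr11:87793784-87804412 (plus strand, 17523), Ctsg at chr14:56099885-56102574 (minus strand, 13035) and Ms4a3 at chr19:11629499-11640851 (minus strand, 170813). The promoters are shown because the 5 genes moved together across the groups (below) while lying on 4 chromosomes. A 6-base word of the ETS family core, GGAAGT, was found in the 300-base promoter of 5 of 5 genes, counting both strands, and it is present in 23.8% of all 32851 mouse promoters of the same length. PU.1, an ETS factor needed for myeloid development, is known to bind near such cores in several granule genes. The stretches below, from RefSeq on GRCm38.p6, run 5′ to 3′ on the strand of the gene, with the GGAAGT word in capitals.
Mpo, chr11:87793547-87793646, plus strand: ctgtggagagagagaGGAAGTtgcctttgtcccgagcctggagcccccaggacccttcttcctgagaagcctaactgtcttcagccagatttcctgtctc
Elane, chr10:79886214-79886311, plus strand: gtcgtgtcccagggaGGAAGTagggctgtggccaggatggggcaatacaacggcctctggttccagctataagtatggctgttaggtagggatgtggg
Prtn3, chr10:79879559-79879658, plus strand: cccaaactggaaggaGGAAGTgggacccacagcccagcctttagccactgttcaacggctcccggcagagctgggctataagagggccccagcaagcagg
Ctsg, chr14:56102695-56102794, minus strand: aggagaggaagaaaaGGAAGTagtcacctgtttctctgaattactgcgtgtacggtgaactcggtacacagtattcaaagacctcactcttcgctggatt
Ms4a3, chr19:11640852-11640921, minus strand: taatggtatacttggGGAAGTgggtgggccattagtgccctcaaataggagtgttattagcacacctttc

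The word starts 222 bases before the annotated start of Mpo, 83 before Elane, 93 before Prtn3, 205 before Ctsg and 55 before Ms4a3. In Mpo, Elane and Prtn3 it is part of the longer word GAGGAAGT, which contains it and is present in 3.20% of all promoters. The promoters of the neighbours Elane and Prtn3 resemble each other further. Both hold AACGG, a match to the MYB core AACNG, at 50 and 55 bases before the start, and TATAA at 31 and 32 bases. AACNG was found in 4 of 5 promoters and in 80.3% of all promoters, and TATAA in 3 of 5 and in 24.9%. The C/EBP-like word TTNNGNAA was found in the Ms4a3 promoter alone among the 5 and in 40.7% of all promoters. These are matches of letters within the windows and do not show binding.

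**Figure D1:**
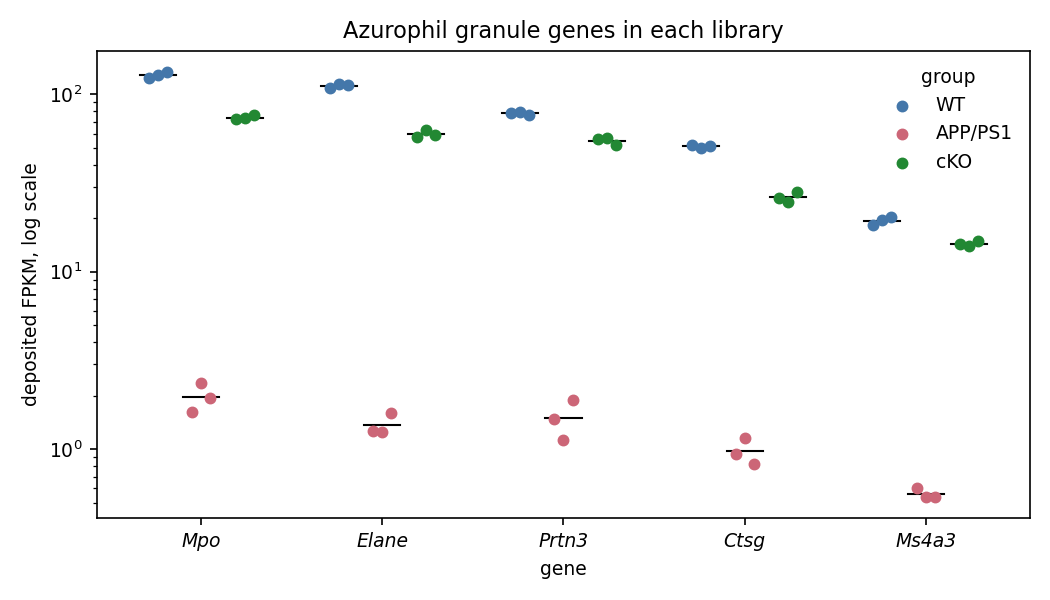
Deposited FPKM (level per kilobase, scaled to library size, log axis) of the 5 genes, 1 point per library and a line at the mean of each group, for WT, APP/PS1 and cKO. For every gene the 3 APP/PS1 libraries lie far below the others, and the cKO libraries lie below the WT libraries without overlap.

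Mpo encodes myeloperoxidase, the haem enzyme that makes hypochlorous acid and the most abundant protein of azurophil granules. WT libraries 1 to 3 held 5847, 6136 and 6428 rounded counts of it, the APP/PS1 libraries 77, 114 and 94, and the cKO libraries 3451, 3551 and 3713. All 3 APP/PS1 libraries were low, and the groups did not overlap. Of all genes tested, 63.5% did not overlap between APP/PS1 and WT, 59.7% between cKO and APP/PS1 and 54.6% between cKO and WT. As FPKM, which allows for gene length, Mpo was at 128 ± 4.73 in WT, 1.98 ± 0.371 in APP/PS1 and 73.7 ± 2.08 in cKO (SD, n = 3).

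Elane, Prtn3 and Ctsg encode the neutrophil serine proteases, which are made as precursors, trimmed by cathepsin C and stored in active form in the granules. Elane, neutrophil elastase, had 1779, 1902 and 1901 counts in the WT libraries, 21, 21 and 27 in those of APP/PS1 and 964, 1071 and 1007 in those of cKO. Prtn3, proteinase 3, had 1361, 1407 and 1360 counts in the WT libraries, 26, 20 and 34 in those of APP/PS1 and 987, 1022 and 930 in those of cKO. Ctsg, cathepsin G, had 928, 902 and 939 counts in the WT libraries, 17, 21 and 15 in those of APP/PS1 and 472, 458 and 521 in those of cKO. All 3 proteases shared the order of Mpo, with WT highest, cKO lower and APP/PS1 lowest, and none had overlapping groups. Elane was at 112 ± 3.11 FPKM in WT, 1.37 ± 0.197 in APP/PS1 and 59.9 ± 2.79 in cKO. Prtn3 was at 77.9 ± 1.55, 1.50 ± 0.390 and 54.7 ± 2.80 FPKM, and Ctsg at 50.8 ± 1.17, 0.970 ± 0.167 and 26.2 ± 1.68 FPKM, in the same order (SD, n = 3).

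Ms4a3 encodes a membrane protein with several membrane spans and no known protease activity. It is transcribed in granulocyte-monocyte progenitors and promyelocytes and is widely used to mark descendants of that stage. It had 334, 361 and 375 counts in the WT libraries, 11, 10 and 10 in those of APP/PS1 and 263, 260 and 279 in those of cKO, or 19.4 ± 0.921, 0.560 ± 0.035 and 14.3 ± 0.483 FPKM (SD, n = 3). The order of the groups was again WT, cKO, APP/PS1 with no overlap. Its APP/PS1 counts are the lowest among the 5 genes. In APP/PS1 library 1, 11 counts gave an exact (Clopper-Pearson) 95% interval of 0.289 to 1.04 CPM of the unscaled library total, which covers counting error only. On unscaled library totals, which the low-count filter uses, Ms4a3 was at or above the minimum of 0.518 CPM in 7 of 9 libraries, 1 of them from APP/PS1, and the other 4 genes were at or above it in all 9. All 5 genes were tested.

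Summed over the 5 genes, the level was 526 ± 13.7, 9.34 ± 0.909 and 331 ± 5.62 CPM in WT, APP/PS1 and cKO (SD, n = 3). The single libraries ran from 512 to 539 CPM in the WT libraries, 8.30 to 10.01 in those of APP/PS1 and 325 to 336 in those of cKO. The sum was thus 56.3 times as high in WT as in APP/PS1 and 1.59 times as high in WT as in cKO. Even at its highest it was a small part of the RNA, at 0.0542% to 0.0570% of the estimated counts of a WT library, 0.000801% to 0.000962% in APP/PS1 and 0.0320% to 0.0330% in cKO. In RNA from bulk cells, fewer cells of a type and less RNA per cell cannot be told apart, and this holds for every comparison that follows.

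The comparison of APP/PS1 with WT addressed what the amyloid model does to the captured cells. All 5 azurophil genes were lower in APP/PS1 by edgeR's quasi-likelihood test, where 32% of all 14696 genes tested were called lower and 26.9% higher, at a Benjamini-Hochberg adjusted p under 0.05 over all genes, 59% in all. Their median log2 change was -5.57, and that of all genes tested was -0.036. Elane was 73.9-fold lower, a log2 change of -6.20 (SE 0.09, edgeR adjusted p 1.46e-27). Mpo was 59.0-fold lower, with a log2 change of -5.88 (SE 0.06, edgeR adjusted p 7.28e-28). The changes of Ctsg and Prtn3 were close to each other at -5.57 (SE 0.10, edgeR adjusted p 1.04e-24) and -5.55 (SE 0.09, edgeR adjusted p 1.07e-25), or 47.7-fold and 47.1-fold lower. Ms4a3 had the smallest drop of the 5, 31.5-fold with a log2 change of -4.96 (SE 0.14, edgeR adjusted p 4.40e-21). Ordered by log2 change from the lowest, these genes held places 13 (Elane), 15 (Mpo), 16 (Ctsg), 17 (Prtn3) and 22 (Ms4a3) of the 14696, so 22 genes, or 0.150%, were at least as low as Ms4a3.

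The comparison of cKO with APP/PS1 was made between the groups that carry the amyloid transgenes. Besides the Cx43 deletion, these groups differed in the labelled Cx3cr1-CreER allele, in the level of Cx3cr1 and in Y-linked expression (above). The parts of these in the differences cannot be told apart. All 5 genes were higher in cKO, where 27.3% of genes tested were called higher and 27.7% lower, 55% in all. Elane had the largest change, a log2 change of 5.41 or 42.8-fold (SE 0.10, edgeR adjusted p 1.94e-25). It was followed by Mpo at 5.19 or 36.5-fold (SE 0.07, edgeR adjusted p 1.54e-26) and Prtn3 at 5.15 or 35.6-fold (SE 0.10, edgeR adjusted p 1.28e-24). Ctsg changed by 4.72 or 26.5-fold (SE 0.12, edgeR adjusted p 4.56e-22) and Ms4a3 by 4.63 or 25.1-fold (SE 0.15, edgeR adjusted p 6.94e-20). Their median log2 change was 5.15 against -0.011 for all genes tested, and from the highest they held places 10 to 29. This comparison and that of APP/PS1 with WT share the APP/PS1 libraries, so their opposite directions are not separate observations.

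The comparison of cKO with WT does not use the APP/PS1 libraries, and every library in it held at least 260 counts of each gene. All 5 genes were lower in cKO, where 23% of genes tested were called lower and 24.7% higher, 47.7% in all, and the differences were far smaller than those from APP/PS1. Ctsg was at 55.7% of its WT level, a log2 change of -0.85 (SE 0.05, edgeR adjusted p 5.63e-13). Elane was at 57.9% (-0.79, SE 0.04, edgeR adjusted p 2.91e-14) and Mpo at 61.8% (-0.69, SE 0.04, edgeR adjusted p 1.97e-13). Prtn3 and Ms4a3 were nearer to WT, Prtn3 at 75.6% (-0.40, SE 0.05, edgeR adjusted p 9.07e-08) and Ms4a3 at 79.6% (-0.33, SE 0.07, edgeR adjusted p 0.000442). The median log2 change was -0.69 against -0.0086 for all genes tested. For each gene and each pair of groups the exact two-sided permutation p over libraries was 0.1, the smallest that 3 libraries against 3 can give. The full order of WT above cKO above APP/PS1, with all 3 differences past the threshold, was met by 507 of 14696 genes (3.45%), the 5 azurophil genes included.

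**Figure D2:**
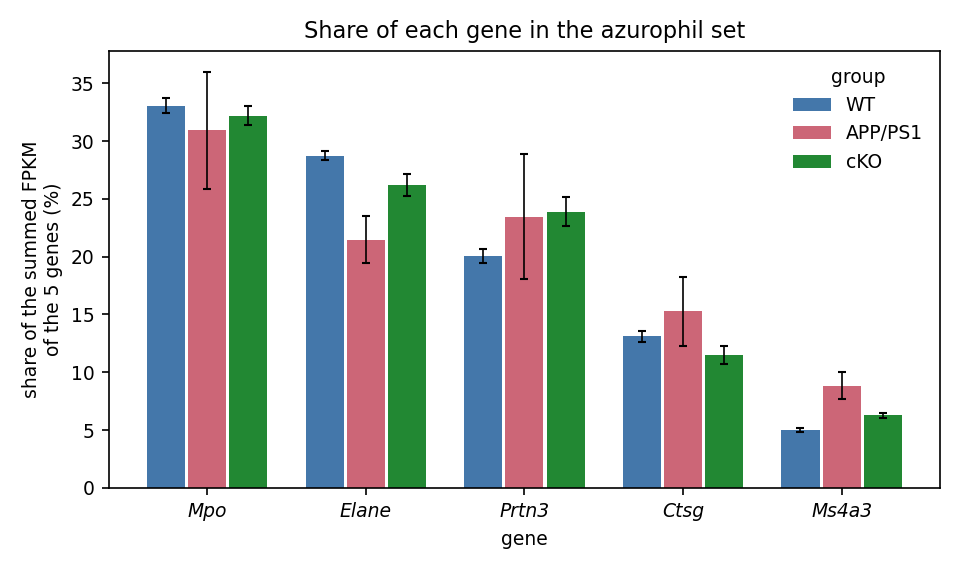
Share of each gene in the summed FPKM of the 5 genes, in percent, as the mean of each group (bars, WT, APP/PS1 and cKO) with its SD over 3 libraries. Elane has a smaller mean share and Ms4a3 a larger one in cKO than in WT, and the SDs are widest in APP/PS1.

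The order of the 5 genes by level was the same in WT and cKO, while their shares differed. In all 6 of these libraries the order by FPKM was Mpo, Elane, Prtn3, Ctsg, Ms4a3, with no overlap between neighbours within a group. Mpo made up 33.1% of the summed FPKM in WT and 32.2% in cKO. Elane went from 28.8% ± 0.371 in WT to 26.2% ± 0.924 in cKO and Ctsg from 13.1% ± 0.471 to 11.5% ± 0.766. The shares of Prtn3 were 20.1% ± 0.626 and 23.9% ± 1.26, and those of Ms4a3 5.00% ± 0.146 and 6.27% ± 0.240 (SD, n = 3). The WT and cKO libraries did not overlap in the shares of these 4 genes and overlapped in that of Mpo. In APP/PS1 the order was not fixed below Mpo: Prtn3 came second in libraries 1 and 3 and Elane in library 2, at 20 to 34 counts each. These low counts leave the order of the 3 proteases in APP/PS1 unresolved, since their exact intervals overlapped.

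Maturity can be read from the azurophil genes only in relation to the genes of later stages. The specific and gelatinase granule genes (12 listed, 12 tested) were lower in APP/PS1 than in WT in 12 of 12 cases (median log2 change -2.40) and higher in cKO than in APP/PS1 in 12 of 12 (median 3.96). Against WT, 12 of 12 were higher in cKO, with a median log2 change of 1.72, against the 24.7% of all genes tested that were higher. These are the reverse of the directions of the 5 azurophil genes in the same comparison. Ngp, neutrophilic granule protein, was at 661 ± 7.13, 135 ± 0.321 and 2318 ± 14.3 CPM in WT, APP/PS1 and cKO, a log2 change of 1.81 between cKO and WT (SE 0.03, edgeR adjusted p 2.86e-27). Ltf, lactoferrin, was at 336 ± 3.34, 55.6 ± 1.42 and 1298 ± 11.2 CPM in the same order. The log2 changes of Lcn2 (lipocalin 2) and Camp (cathelicidin) between cKO and WT were 1.93 and 1.42.

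Genes of mature neutrophils followed the specific granule genes. Of 17 listed, 17 were lower in APP/PS1 than in WT (median log2 change -1.34) and 17 higher in cKO than in APP/PS1 (median 2.79). Between cKO and WT, 16 were higher, with a median of 1.33, and on the TPM scale 16 were higher and 1 lower. The exception was Csf3r, the receptor of granulocyte colony-stimulating factor, at 687 ± 41.9 CPM in WT and 701 ± 38.1 in cKO (log2 change 0.03, SE 0.06, edgeR adjusted p 0.761). S100a8, a subunit of calprotectin, was at 501 ± 10.6, 296 ± 8.96 and 1755 ± 26.7 CPM in WT, APP/PS1 and cKO. For its partner S100a9 the log2 change between cKO and WT was 1.54, and for Retnlg, a resistin-like protein of blood neutrophils, it was 1.33.

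**Figure D3:**
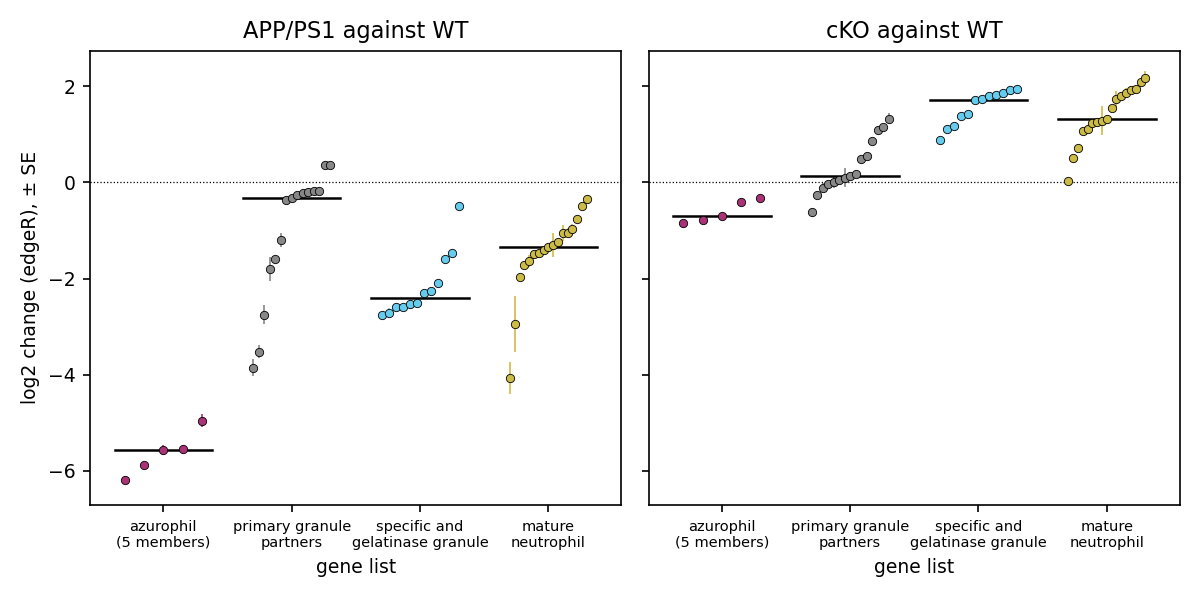
Log2 change with its SE for each of the 5 azurophil genes, the primary granule partners, the specific and gelatinase granule genes and the mature neutrophil genes, in APP/PS1 against WT (left) and cKO against WT (right). Each point is 1 gene and the line marks the list's median. Between cKO and WT the azurophil genes lie below 0 and the specific granule and mature neutrophil genes above it.

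Set against the later genes, the azurophil transcripts were highest in WT. Per 1000 CPM of the summed specific and gelatinase granule genes, the 5 azurophil genes summed to 274 to 290 in the WT libraries (mean 283 ± 7.94, SD, n = 3), 21.2 to 25.7 in APP/PS1 (23.96 ± 2.41) and 53.3 to 55.2 in cKO (54.4 ± 0.982). Per 1000 CPM of the mature neutrophil genes they were at 218 ± 3.28 in WT, 6.95 ± 0.549 in APP/PS1 and 57.5 ± 1.41 in cKO. On both scales the 3 groups did not overlap and kept 1 order, WT above cKO above APP/PS1. The WT ratio was 5.20 times that of cKO against the specific granule genes and 3.78 times against the mature genes, although the azurophil sum itself differed by only 1.59 times. The later lists made up most of that gap: the specific and gelatinase sum was 3.27 times and the mature sum 2.38 times as high in cKO as in WT. Csf3r made up 687 of the 2417 CPM of the mature sum in WT, 542 of 1343 in APP/PS1 and 701 of 5759 in cKO. With Csf3r left out of the mature list, an alternative added after seeing the data, the ratios were 304 ± 10.1, 11.7 ± 1.19 and 65.5 ± 2.15 in the same order, and that of WT was 4.64 times that of cKO. In every group both later lists summed higher than the azurophil genes, which were at 526 CPM in WT against 1861 and 2417 for the later lists. Such sums also depend on the number and the length of the genes in a list. A mixture of cells of different stages and a shift within cells cannot be told apart in these data. These ratios have no test of their own, because the lists were chosen with earlier results of these data known.

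**Figure D4:**
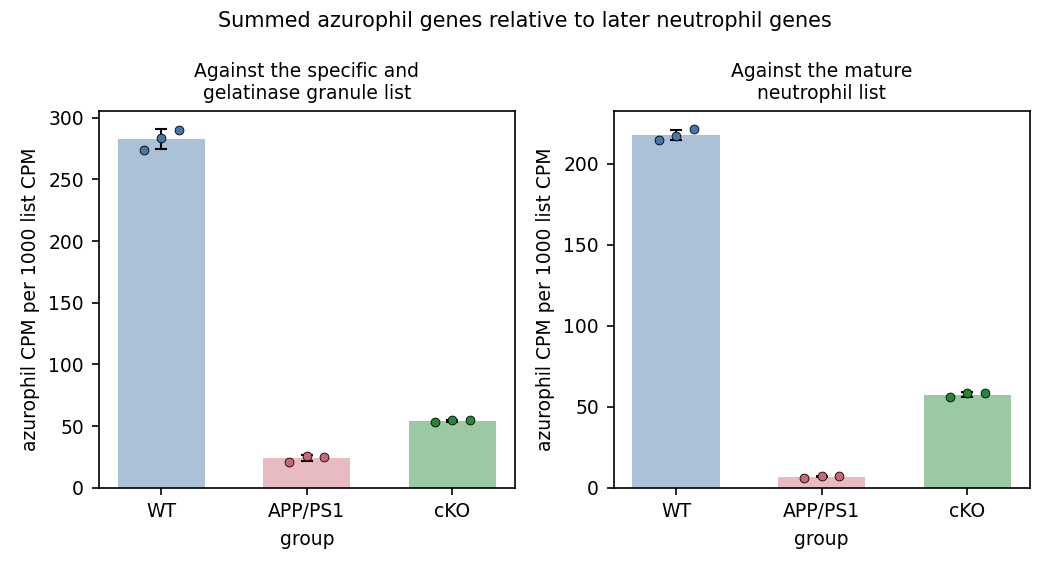
Summed CPM of the 5 azurophil genes per 1000 CPM of the specific and gelatinase granule genes (left) and of the mature neutrophil genes (right), with 1 point per library, bars at the group mean and error bars of 1 SD, for WT, APP/PS1 and cKO. Against the specific granule genes the WT libraries lie at 274 to 290, the cKO libraries at 53.3 to 55.2 and the APP/PS1 libraries at 21.2 to 25.7.

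The genes that process, store or inhibit the azurophil proteins, with factors and receptors of the promyelocyte and its precursors, did not move as a block. Of 15 listed, 2 were higher and 11 lower in APP/PS1 than in WT (median log2 change -0.33), 12 were higher and 3 lower in cKO than in APP/PS1 (median 0.76), and 8 were higher and 2 lower in cKO than in WT (median 0.13). On the TPM scale limma-trend called 13 lower and left 2 not past the threshold in the first comparison, called 13 higher and 1 lower in the second, and 6 higher and 5 lower in the third. Of the 4 with the highest FPKM, microglia or other brain cells are known to express several. Ctsc, the protease that activates elastase, proteinase 3 and cathepsin G, was at 745 ± 11.9, 655 ± 2.33 and 625 ± 13.3 CPM in WT, APP/PS1 and cKO, with log2 changes of -0.19 between APP/PS1 and WT and -0.25 between cKO and WT. Srgn, the proteoglycan that holds the proteases within the granule, had log2 changes of 0.37 and 0.17 in the same comparisons, and Cd34, a surface protein of progenitors and vessels, 0.37 and 0.56. Cebpa, a transcription factor of myeloid progenitors, was at 326 ± 6.81, 279.9 ± 6.61 and 357 ± 8.71 CPM, with log2 changes of -0.22 and 0.13. The changes of Srgn, that of Cd34 between APP/PS1 and WT, and that of Cebpa between cKO and WT turned to below 0 on the TPM scale. There they ran from -0.067 to -0.017, and none passed the threshold (limma-trend adjusted p 0.0695 to 0.514).

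Other genes of that list, chosen after their values were seen, showed larger differences. Myb, a factor of immature progenitors, was at 11.6 ± 1.02, 0.796 ± 0.421 and 10.7 ± 0.728 CPM in WT, APP/PS1 and cKO, with no call between cKO and WT (log2 change -0.11, edgeR adjusted p 0.401). Gfi1, a repressor needed for neutrophil production, was at 2.78 ± 0.201, 0.792 ± 0.387 and 2.99 ± 0.663 CPM (0.10, edgeR adjusted p 0.700), and Kit, the receptor of stem cell factor, at 7.20 ± 1.44, 3.14 ± 0.255 and 7.28 ± 0.351 CPM (0.01, edgeR adjusted p 0.938). Cebpe, the factor that drives the specific granule genes, was instead higher in cKO than in WT, at 9.23 ± 0.755 against 3.69 ± 0.0602 CPM and 0.541 ± 0.0583 in APP/PS1 (1.32, edgeR adjusted p 2.69e-10). Serpinb1a, an inhibitor of elastase, proteinase 3 and cathepsin G in the cytosol, rose from 30.0 ± 1.12 CPM in WT to 64.1 ± 1.01 in cKO (1.10, edgeR adjusted p 1.34e-16). Fcnb, a ficolin of immature neutrophils, went from 11.5 ± 0.384 to 20.8 ± 1.24 CPM (0.86, edgeR adjusted p 2.71e-10). Mgst1, a membrane-bound glutathione transferase, was at 11.6 ± 1.15 CPM in WT and 25.7 ± 1.51 in cKO (1.15, edgeR adjusted p 1.01e-12). Nkg7, a granule protein of cytotoxic lymphocytes, was lower in cKO than in WT, at 7.11 ± 0.639 against 10.98 ± 0.204 CPM (-0.63, edgeR adjusted p 2.21e-06).

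Across the 9 libraries, the genes nearest in pattern to Mpo, Elane, Prtn3 and Ctsg were mostly one another, in an order that depended on the pseudocount. Likeness was measured as the root mean square difference of log2(CPM + 1), centred on each gene's mean, among the 13592 other genes whose mean reached 1 CPM, and it is given as a description. The nearest gene to Mpo was Elane, at 0.199, then Prtn3 at 0.388 and Ctsg at 0.544, and the nearest to Elane was Mpo, then Prtn3 at 0.240 and Ctsg at 0.407. Prtn3 lay nearest to Elane, then Ctsg at 0.333, and Ctsg nearest to Prtn3, then Elane, then Ms4a3 at 0.415. With this pseudocount of 1, which is above the APP/PS1 level of Ms4a3 (0.559 CPM) and of Ctsg (0.956 CPM), the neighbours of Ms4a3 were Epx at 0.175 and Prg2 at 0.178, the peroxidase and the major basic protein of eosinophil granules, and Eps8l1 at 0.346. With a pseudocount of 0.1, tried after seeing the data, the neighbours of Ms4a3 were Ctsg at 0.321, Eps8l1 at 0.335 and Prss57, a further serine protease of azurophil granules, at 0.343, while Prtn3 took place 4, Epx 5 and Prg2 12. The smaller pseudocount also made Mpo the nearest gene to Ctsg, at 0.269, and put Ctsg second for Mpo and Mpo second for Prtn3. On that scale the nearest gene to each of the 5 was another of the 5. Between APP/PS1 and WT the log2 change of Ms4a3, -4.96, lay nearer to those of Prtn3 and Ctsg than to the -3.89 of Epx and the -3.35 of Prg2, while between cKO and WT its -0.33 lay nearer to the -0.32 of Prg2, the -0.40 of Prtn3 and the -0.50 of Epx than to the -0.69 of Mpo, the -0.79 of Elane and the -0.85 of Ctsg.

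Markers of other blood-borne cells also differed between the groups. The 10 erythroid genes summed to 1323 to 1376 CPM in the WT libraries, 333 to 353 in those of APP/PS1 and 177 to 188 in those of cKO, so they were low in APP/PS1 like the azurophil genes and lower still in cKO, where the azurophil genes were high. Of these, 9 of 10 were lower in APP/PS1 than in WT and 9 of 10 lower in cKO than in WT. The 12 basophil, mast cell and eosinophil genes summed to 216 ± 7.86, 75.4 ± 2.35 and 207 ± 10.4 CPM, and the 10 monocyte genes to 671 ± 10.7, 414 ± 13.8 and 665 ± 7.89 CPM (SD, n = 3). In APP/PS1, 9 of the 12 and 8 of the 10 were lower than in WT, while cKO was close to WT in both sums. The 13 genes of astrocytes, oligodendrocytes, neurons and vessels summed to 2322 to 2380 CPM in the WT libraries, 2490 to 2547 in those of APP/PS1 and 2300 to 2358 in those of cKO. The part of blood, marrow or meningeal cells carried into the preparation in these differences was not tested.

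Most of the transcript sequence of the 5 genes was found in no other gene. Of the 50-base stretches of their transcripts in GENCODE M21, none of 935 for Elane, 1028 for Ctsg or 1880 for Ms4a3 was also found in a transcript of another gene. For Prtn3 it was 110 of 1706, shared with the neighbouring gene Plppr3, and for Mpo 338 of 3508, of which 324 were shared with the antisense gene Gm11505. Whether the counting used strand is not given in the sources used here, so the reads of those stretches are uncertain.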

How the data were processed

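Poly-A RNA of CD45-captured cells was sequenced as single-end 50-nt reads, per the labels' protocols, in 9 libraries (3 per genotype, grouped and numbered by their titles). HISAT, Bowtie2 and DESeq2 and the build GRCm38.p6 are named in the submitters' processing notes without a role or version. The counting program, the annotation and the use of strand are not given in the sources used here. Per the file headers, the deposited table holds for each library a TPM, an FPKM, a normalised count and an estimated count that has decimals and is not scaled between libraries. The deposited normalised counts, a signal equal to the estimated count multiplied by a factor per library, and the authors' group means entered no result.

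Estimated counts were rounded and tested with the edgeR 4.0.16 quasi-likelihood test (R 4.3.3, TMM scaling, filterByExpr by group, robust dispersion, all 9 libraries in 1 fit with a mean per group). P-values were adjusted by Benjamini-Hochberg over all 14696 genes tested, and 0.05 was the threshold. The SE is the absolute log2 change divided by the square root of the F statistic. CPM uses TMM-scaled library sizes. Levels are compared between genes as FPKM only. Exact permutation tests and exact Clopper-Pearson intervals used scipy 1.17.1. The edgeR step was tested on simulated data. Each library was counted as 1 replicate. Within-group library pairs differed by more than sampling noise (mean chi-square per gene 1.80 to 3.54 over the 10813 genes averaging 100 counts or more, and 71.2 to 133 between groups). Separate preparations of 1 pool can also differ in this way, so these values do not show that the libraries came from separate animals. The edgeR fit's biological coefficient of variation was 3.14%.

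The 5 members and all gene lists were chosen with earlier results of these data known, so lists are described by counts and medians only. Named genes were the 5 members, the 4 genes of each list with the highest mean FPKM, any at 3 or fewer counts in every library, the 3 genes nearest in pattern to each member, and Gja1, Cx3cr1 and Ddx3y. Others are said to be chosen after their values were seen. All genes of the basophil, mast cell and eosinophil list are named as well, also with their values seen. Not every gene the rule selects is reported here.

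The alternatives were DESeq2 size factors, library totals without scaling factors, the DESeq2 1.42.0 Wald test, limma-voom (limma 3.58.1), testing all genes without a low-count filter, requiring 10 counts in each library, fitting just the groups compared, the replicate number as a block, offsets by 10 bins of gene length with and without the block, limma-trend on log2(FPKM + 1) and on log2(FPKM + 0.1), an adjusted p of 0.01, and leaving out each library in turn. Limma-trend on log2(TPM + 1), the list counts under other scalings, a pseudocount of 0.1 for likeness between genes, and the mature list without Csf3r were added after seeing the data. Promoters came from RefSeq on GRCm38.p6 and matched 5 of 5 genes. Motifs were searched on both strands in 300 bases (250 before to 50 after the start).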

Additional observations from a re-analysis of the deposited data

How the results depend on the processing

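All 330 recomputed log2 changes of the 5 genes (3 comparisons, 22 settings) kept their direction and stayed past the threshold. The highest adjusted p over the settings was 0.0206, for Ms4a3 between cKO and WT, and over the 13 settings other than leaving out a library the log2 changes of that comparison ran from -0.89 to -0.67 for Mpo, -0.98 to -0.76 for Elane, -0.60 to -0.38 for Prtn3, -1.03 to -0.82 for Ctsg and -0.51 to -0.30 for Ms4a3. Without 1 library they ran from -0.72 to -0.67, -0.83 to -0.76, -0.43 to -0.36, -0.90 to -0.80 and -0.37 to -0.30, in the same order. Between APP/PS1 and WT the sizes moved more. Over the same 13 settings the log2 changes ran from -6.02 to -5.45 for Mpo, -6.82 to -5.57 for Elane and -6.17 to -4.99 for Prtn3. Those of Ctsg ran from -6.19 to -4.72 and those of Ms4a3 from -5.58 to -3.71. With length offsets Mpo, at -5.81, dropped less than Ctsg and Prtn3, unlike in the main fit. Between cKO and APP/PS1 the lowest was 3.30, for Ms4a3, and the highest 5.90, for Elane. The summed level kept the order WT, cKO, APP/PS1 in every setting: it was 556 CPM in WT and 325.3 in cKO with library totals, 388, 6.38 and 229 (WT, APP/PS1, cKO) as summed FPKM, and 223, 4.20 and 144 CPM without Mpo. Per 1000 of the specific and gelatinase granule genes it was 249, 19.6 and 49.5 as FPKM and 119.8, 10.8 and 23.6 without Mpo, and per 1000 of the mature genes 100.4, 3.57 and 21.3 as FPKM, 92.3, 3.13 and 25.0 without Mpo, and 304, 11.7 and 65.5 with Csf3r left out of the mature list.

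Genes called over all settings other than leaving out a library numbered 7254 to 11349 (APP/PS1 and WT), 6519 to 9085 (cKO and APP/PS1) and 5479 to 9047 (cKO and WT), and without 1 library 8024 to 8763, 7345 to 8133 and 6291 to 7133. The balance of calls moved with the scaling and, for FPKM and TPM, with limma-trend as the test. The share called higher in APP/PS1 than in WT was 45.7% with TMM, 29.5% with library totals, 30.2% with FPKM and 14.7% with TPM, where the median of all genes was at -0.036, -0.17, -0.11 and -0.35. For cKO and WT it was 51.9%, 30.4%, 32.0% and 19.8%, and for cKO and APP/PS1 it was 49.6%, 54.8%, 54.4% and 75.3%, in the same order.

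The labels do not say what libraries with the same number share. The correlation of their deviations from the group means was over 0.1 in 8 of 9 same-numbered pairs (0.0549 to 0.289) and averaged -0.0954 in the other pairs. The criterion for pairing asked for every pair to be over 0.1 and was missed by 1 pair, so the block was kept as an alternative. As a hint from the data, each library correlated best with the same-numbered library of another group in 18 of 18 cases, and the biological coefficient of variation was 3.14% without the block and 0.988% with it. With the replicate number as a block, 9319, 8851 and 7934 genes were called, and 8765, 8485 and 7735 with length offsets as well. Depth limits the APP/PS1 values of Elane, Prtn3, Ctsg and Ms4a3, which rest on 10 to 34 counts per library.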

Other observations

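Genes of dividing cells followed the specific granule genes rather than the azurophil genes. The 10 cell cycle genes summed to 182 ± 8.37, 82.0 ± 1.12 and 297 ± 6.13 CPM in WT, APP/PS1 and cKO (SD, n = 3). Of these, 9 were lower in APP/PS1 than in WT, 10 were higher in cKO than in APP/PS1 and 9 were higher in cKO than in WT, with medians of -1.18, 1.86 and 0.66 on the log2 scale. Mki67, a protein of cycling cells, was at 63.1 ± 1.37, 27.0 ± 2.22 and 105 ± 2.26 CPM, and Top2a, a topoisomerase of dividing cells, had a log2 change of 0.78 between cKO and WT. Promyelocytes and myelocytes divide and mature neutrophils do not. Dividing microglia also express these genes, and the cell type behind them was not tested.

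The 12 basophil, mast cell and eosinophil genes did not move together between cKO and WT: 4 were higher, 6 lower and 2 not past the threshold. Of the eosinophil genes, Prg2 and Epx had log2 changes of -0.32 and -0.50. Those of Ear1, Ear2 and Ear6, ribonucleases of eosinophils, were -0.59, -0.69 and -0.40. Siglecf, a receptor of eosinophils, was at 0.84. It was also higher in APP/PS1 than in WT (log2 change 0.83), where the other listed eosinophil genes were lower. Between cKO and APP/PS1 Siglecf did not pass (0.02, edgeR adjusted p 0.813). Of the basophil and mast cell genes, the proteases Mcpt8 and Prss34 had log2 changes of 1.27 and 1.49 between cKO and WT. Fcer1a, a subunit of the IgE receptor, was at 1.21, while the factor Gata2 was at -0.54. Ms4a2 and Cpa3 had log2 changes of 0.21 and -0.16 and did not pass (edgeR adjusted p 0.581 and 0.389). Of 10 B progenitor genes, 6 were tested, of which 4 were lower in APP/PS1 than in WT. Rag2, a recombinase of lymphocyte progenitors, had at most 3 counts in any library, and Cd79a, a subunit of the B cell receptor, was at 7.65, 1.15 and 7.24 CPM in WT, APP/PS1 and cKO.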
